A study of Ovis aries with 60 samples.

Results

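Sperm methylation was compared between F2 rams descended from methionine-supplemented F0 sires and F2 rams descended from control F0 sires. The libraries were chosen by their labels, which carry the F0 sire number and its diet, and comprise 20 of the 40 bisulfite libraries of the series, 10 per diet line. All animals were Polypay sheep, and by the study's methods the F0 rams were male twin pairs with 1 twin on each diet. The methionine line traces back to F0 rams that received rumen-protected methionine on top of the control diet from weaning until puberty, and the control line to F0 rams that received the control diet alone. No F1 or F2 animal received the supplement, and all dams were untreated, so both lines shared the same diet in the measured generation. Each F0 sire is represented by 1 F1 breeding ram and then by 2 F2 rams, and these 2 rams are called a sire family here. There were 5 methionine families (3T, 5T, 9T, 11T and 23T) and 5 control families (4C, 6C, 10C, 12C and 24C). Because the rams of a family share their sire and grandsire, the family mean was the unit of comparison.

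Methionine is the precursor of S-adenosylmethionine, the donor from which DNA methyltransferases take the methyl group they add to cytosine. In mammalian germ cells methylation is found mostly at cytosines followed by guanine (CG), and methylation marks are largely erased and rewritten during germ cell development and again after fertilization. Mature sperm DNA is highly methylated over most of the genome, with low levels at many CG-rich promoters. CHG and CHH denote cytosines followed by other bases, where H is A, C or T, and carry little methylation in most mammalian cells.

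The files list 122453 CG cytosines, each with at least 10 reads in every one of the 20 rams, with the strands kept apart. The methylation level is the percentage of reads in which the cytosine was methylated. Of these cytosines, 101164 lay on autosomes, 681 on X and 20608 (16.8%) on 398 unplaced scaffolds. The median coverage ranged from 12 to 37 reads per cytosine between rams, and the reads on listed CG cytosines from 3735916 to 5585871, so the level of a single cytosine is coarse.

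A group of 6 rams stood apart from the other 14 before any comparison of diets. CG cytosines were grouped into level classes by their mean over all 20 rams. The 6 rams are those with a level above 25% in the class of 10 to 30%. In that class they had levels of 25.8 to 42.5%, whereas the other 14 had levels of 14.8 to 18.3%. In the class of 90% and over the order was turned, with 88.5 to 94.6% in the 6 rams and 96.4 to 97.4% in the others. On unplaced scaffolds the 6 rams had 42.5 to 66.3% and the others 28.8 to 36.1%. The 6 rams comprised 3 of the methionine line, 1 each in families 3T, 5T and 11T, and 3 of the control line, 1 in family 4C and both rams of family 24C. The first principal component of the CG levels held 29.9% of the variance, the second 5.85%, and the family means on the first did not differ detectably between the diet lines (exact permutation test, two-sided, p = 0.976). The results on levels, classes, chromosomes, windows and called cytosines are given with all 20 rams and without these 6, which leaves 5 methionine and 4 control families. This choice was made after the levels were seen.

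RNA libraries of the same 20 semen samples were used to check the labelled cell type. By the study's methods, cells for RNA passed through a somatic cell lysis buffer first, and the methods describe no such step for the DNA, so the RNA does not read the cell mix of the bisulfite libraries directly. All 11 measured genes of a sperm and spermatid list, among them PRM1 and TNP1, which package sperm chromatin, had reads in every ram. All 12 genes of a leukocyte list and all 9 measured genes of a squamous epithelium list also had reads in every ram. The summed level of the sperm list ranged from 268 to 6041 CPM (reads scaled to library size) in the methionine line, with a median of 578, and from 177 to 7285 CPM in the control line, with a median of 753. The leukocyte list ranged from 191 to 27239 CPM in the methionine line and from 106 to 56829 CPM in the control line. The squamous list ranged from 103 to 15871 CPM and from 86.0 to 27290 CPM, respectively. Few genes carry these sums. Medians over the 20 rams were 2967 CPM for S100A8 and 7081.5 CPM for S100A9 in the leukocyte list, and 2951 CPM for KRT4 in the squamous list. KRT5 and KRT6A fell to 0.404 CPM in the lowest ram. The RNA libraries held 805831 to 13137757 counts. The lines overlapped for each list, and the highest control ram exceeded every methionine ram in all 3. Among the 6 rams that stood apart, the sperm list spanned 268 to 807 CPM with a median of 535, against 177 to 7285 CPM with a median of 1295 in the other 14. The leukocyte list spanned 8736 to 31392 CPM with a median of 11402, against 106 to 56829 CPM with a median of 9360. The squamous list spanned 3260 to 13879 CPM with a median of 6429, against 86.0 to 27290 CPM with a median of 2686. The 6 rams thus lay within the wide range of the others for each list. All 6 nevertheless lay below the median of the others for the sperm list and above it for the squamous list. The lists are set against mean CG level at the end, and their part in the class levels and in the called cytosines was not tested. In bulk semen fewer cells of a type and less RNA per cell cannot be told apart.

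Mean CG methylation did not differ detectably between the diet lines. Over all listed CG cytosines, the methionine rams ranged from 68.5 to 73.4%, with a median of 70.6%, and the control rams from 68.8 to 72.7%, with a median of 70.3%. The 2 lines thus overlapped over nearly their whole range. Family means were 71.4% in 3T, 71.5% in 5T, 69.3% in 9T, 71.6% in 11T and 70.4% in 23T, against 71.1% in 4C, 69.5% in 6C, 70.4% in 10C, 69.3% in 12C and 72.7% in 24C. The methionine families averaged 70.86% ± 0.986 (SD, n = 5) and the control families 70.63% ± 1.39 (SD, n = 5), a difference of 0.234 points (exact permutation test over families, two-sided, p = 0.762). The smallest p that 5 families against 5 can give is 0.00794. Without the 6 rams the difference was 0.390 points (exact permutation test, p = 0.635), and with reads summed over cytosines, which gives deeply covered cytosines more weight, it was 1.49 points (exact permutation test, p = 0.659). The sign turned without family 6C (-0.0445 points), without family 12C (-0.09 points) and over cytosines with at least 20 reads in every ram (-0.136 points). The difference rose to 0.621 points without family 9T and to 0.761 points without family 24C (exact permutation tests, p = 0.421 and 0.222). The highest family, 24C, and the lowest, 9T, belonged to opposite lines, and the 2 rams of a family differed by between 0.0278 points in 24C and 3.81 points in 5T.

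**Figure D1:**
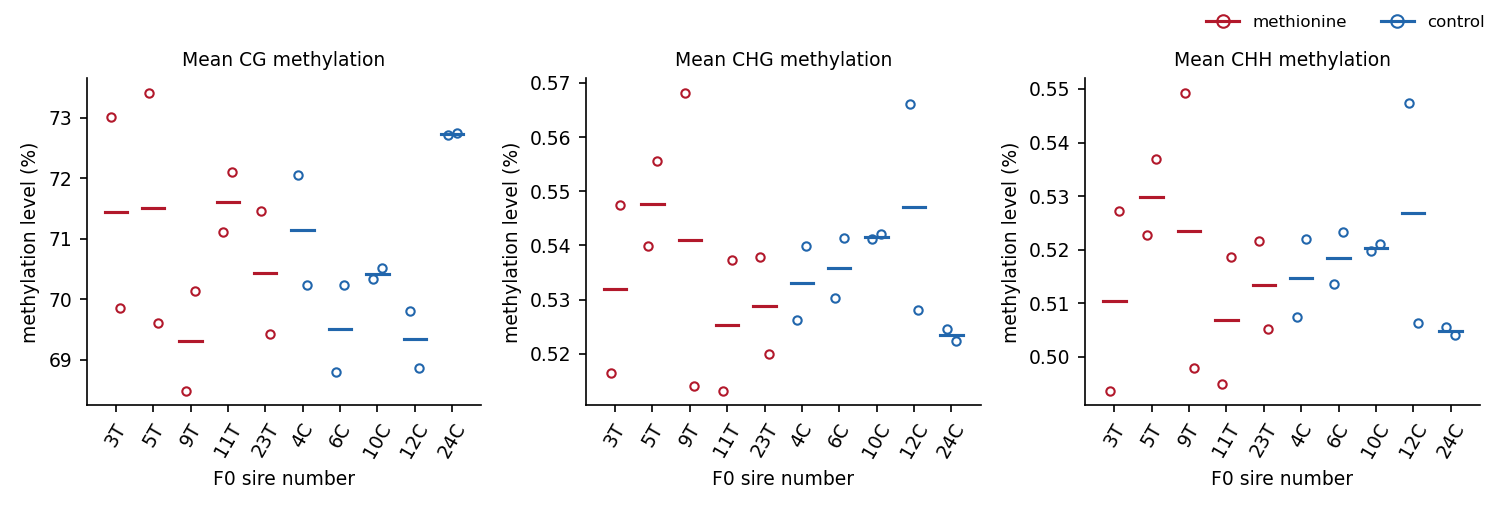
Mean methylation level in percent at listed CG, CHG and CHH cytosines for the 20 F2 rams, arranged by F0 sire number. Circles are rams, lines are means of the 2 rams of a family, and the axes do not start at 0. The methionine and control families overlap in all 3 contexts, with family CG means of 69.3 to 71.6% and 69.3 to 72.7%.

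Methylation outside CG was low in every ram and did not separate the lines. Over 1394192 listed CHG cytosines, methionine rams had mean levels of 0.513 to 0.568% and control rams 0.522 to 0.566%. The family means averaged 0.535% ± 0.0092 (SD, n = 5) and 0.536% ± 0.00898 (SD, n = 5) (exact permutation test, two-sided, p = 0.833). Over 5906407 listed CHH cytosines, the corresponding ranges were 0.494 to 0.549% and 0.504 to 0.547%. The CHH family means averaged 0.517% ± 0.00957 and 0.517% ± 0.00812 (SD, n = 5 each, exact permutation test, two-sided, p = 0.992). Without the 6 rams the differences were 0.000933 points in CHG and 0.00208 points in CHH (exact permutation tests, p = 0.865 and 0.683), the opposite sign to that with all rams. Values this close to 0 also contain incompletely converted cytosines, whose share was not measured here.

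Rams differed more widely in some level classes than in others, and no class differed detectably between the diet lines. The class under 10% held 2179 cytosines, that of 10 to 30% held 11505, that of 30 to 70% held 35765, that of 70 to 90% held 22149 and that of 90% and over held 50855. Cytosines on unplaced scaffolds made up 47.7% of the class of 10 to 30% and 0.157% of the class of 90% and over. In the lowest class methionine families averaged 4.78% ± 0.684 and control families 4.35% ± 0.971 (SD, n = 5 each). In the class of 10 to 30% they averaged 22.5% ± 5.87 and 22.1% ± 11.1. In the class of 30 to 70% they averaged 48.7% ± 4.12 and 48.8% ± 8.02. The 2 upper classes averaged 82.0% ± 2.10 against 81.5% ± 4.02, and 95.4% ± 1.44 against 95.1% ± 3.41. Differences of -0.0933 to 0.559 points were smaller than the SD between families in every class, and no class passed (exact permutation tests, adjusted p = 0.992 in each of the 5 classes). Without the 6 rams the 5 differences were 0.164 to 0.617 points, all higher in the methionine line, and the smallest unadjusted exact p was 0.0556, for the class under 10%. The difference in the class of 30 to 70% changed from -0.0933 to 0.543 points.

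**Figure D2:**
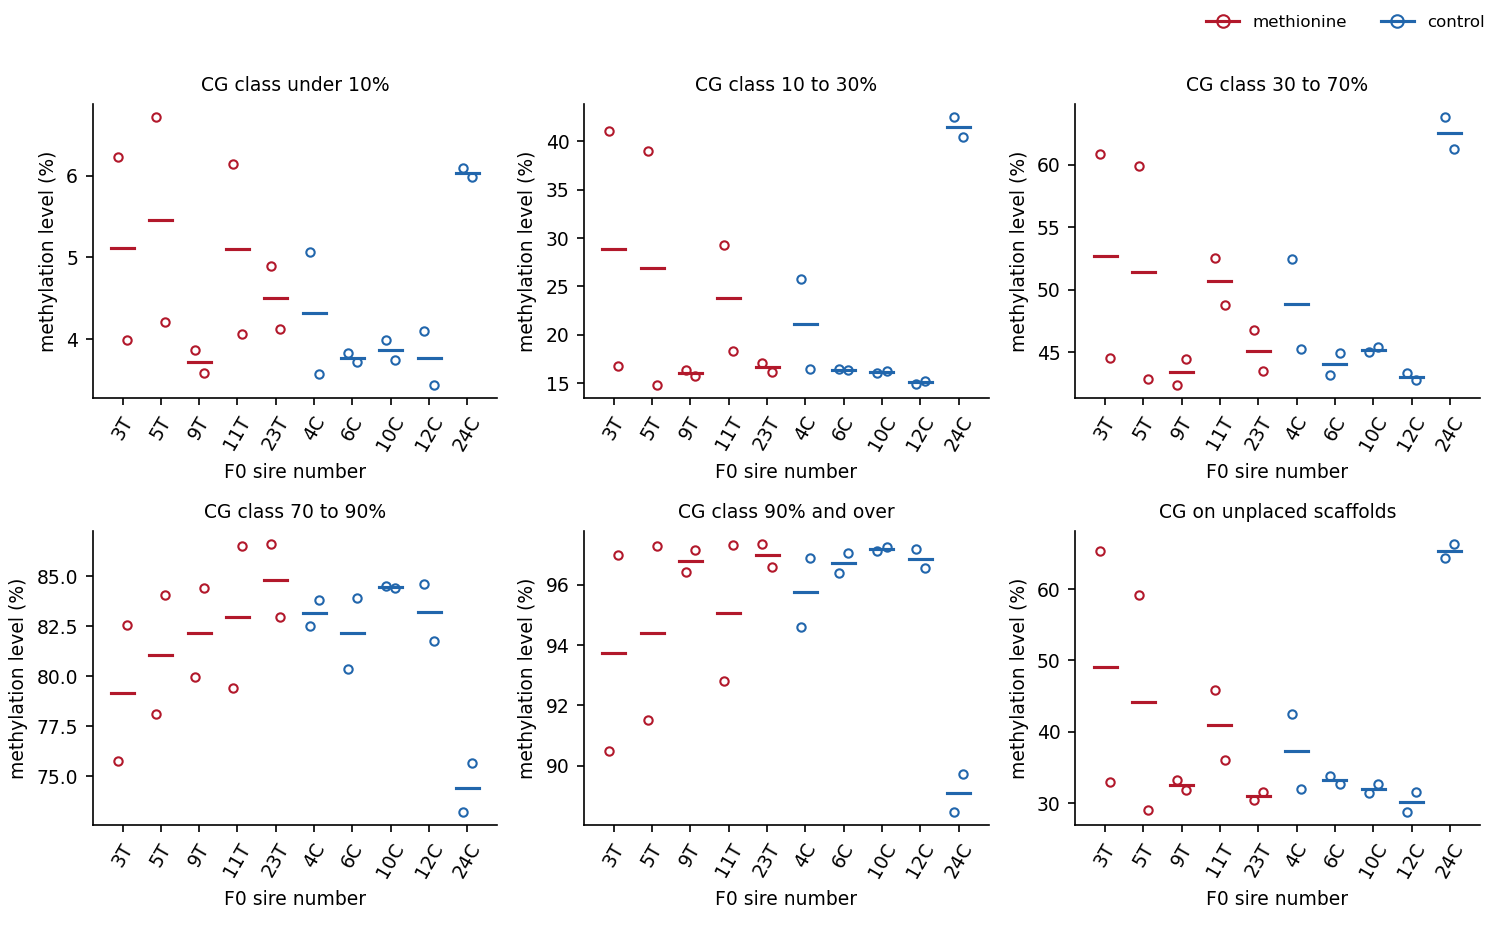
Mean methylation level in percent of the 5 CG level classes and of CG cytosines on unplaced scaffolds, for the 20 F2 rams by F0 sire number. Circles are rams, lines are family means, and the axes do not start at 0. Families 3T, 5T, 11T and 4C each hold 1 ram that stands apart in the class of 10 to 30%, and both rams of 24C lie above 40%.

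The same cytosines were also read in the earlier generations. Of the class of 10 to 30%, 6813 cytosines were also listed for F0, where the 10 sires ranged from 16.4 to 30.7% with a median of 19.1%. Over these cytosines the 20 F2 rams ranged from 15.5 to 40.4%, with a median of 17.1%, and the 14 without those that stood apart from 15.5 to 18.8%. With the 6 rams the F2 range was thus wider than that of the sires, and it covers more animals. Without them it was narrower, but they were set apart by levels above 25% in this same class. The sires, with a highest level of 30.7%, were not trimmed by that cutoff. The narrower range therefore cannot be compared with theirs. Over the 6675 cytosines also listed for F1, the 10 pools ranged from 18.8 to 27.7%, and each pool averages several rams.

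Chromosomes showed small differences with no call. Of the 27 chromosomes, 26 had a higher family mean in the methionine line and 1 a lower one, by -0.212 to 1.16 points. The chromosomes come from the same rams and are not independent. The smallest exact p was 0.508, for chromosome 25, where methionine families averaged 75.3% and control families 74.7% over 1995 cytosines. Chromosome X followed with 68.5% and 68.1%, and then chromosome 14 with 76.6% and 76.1%. No chromosome passed (smallest adjusted p = 0.952), and none had an unadjusted p under 0.05, in the exact permutation test or in limma on the family means. Without the 6 rams, 26 chromosomes were again higher in the methionine line, with a smallest unadjusted exact p of 0.0397.

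Windows of 100 kb with at least 5 listed CG cytosines numbered 9256, with a median of 7 such cytosines. None passed an adjusted p of 0.05 in limma on the family means (percent called, 0.0). At an unadjusted p under 0.05 there were 200 windows, or 2.16%, of which 119 were higher and 81 lower in the methionine line. The median difference was 0.295 points, and the 5th and 95th percentiles were -4.48 and 4.95 points. Differences of at least 10 points in size were seen in 72 windows, and no window reached 20 points. Set beside this, the median SD of a window over the 10 families was 4.94 points, and the 2 rams of a family differed by a median of 6.12 points. Every methionine family lay above every control family in 25 windows and below in 12, which is 0.4% of the windows. Without the 6 rams there were again no calls, 492 windows (5.32%) had an unadjusted p under 0.05, and the smallest adjusted p was 0.107. Leaving out family 24C alone gave 0 calls and 567 windows with an unadjusted p under 0.05 (smallest adjusted p = 0.240, limma). A test on reads summed per diet line, which treats the reads of all rams as independent, called 2595 windows, or 28.0%.

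**Figure D3:**
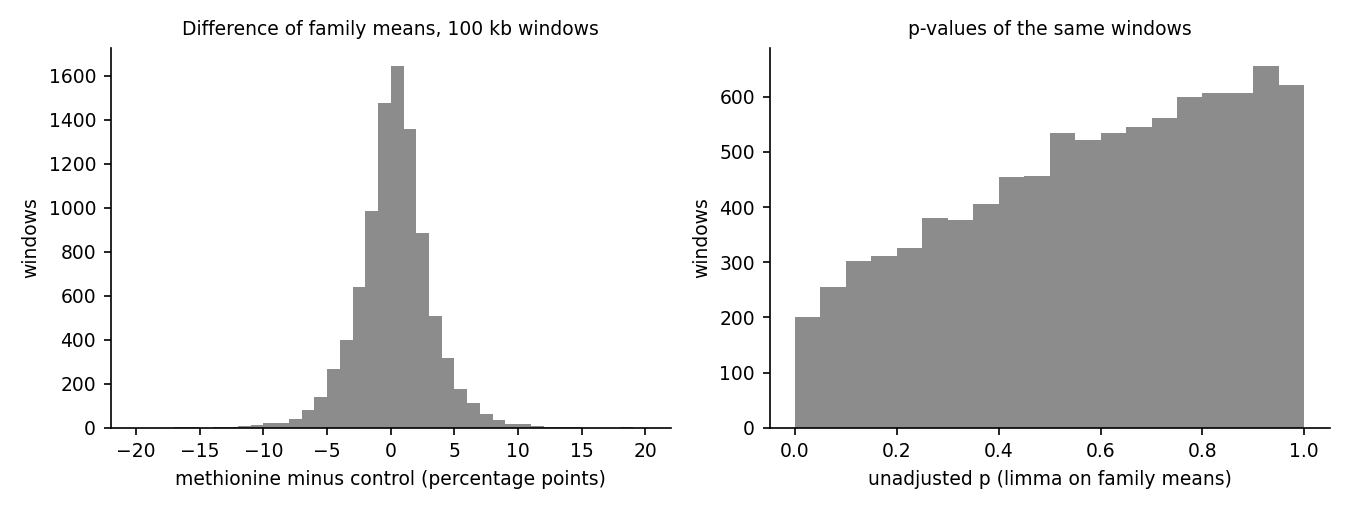
Number of 100 kb windows by difference of family means in percentage points (left) and by unadjusted limma p (right), over 9256 windows. The differences centre near 0 with a median of 0.295 points, and the lowest p-values are the least frequent, with 200 windows under 0.05.

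The windows with the smallest p in each direction are described by their values, since none was called. On chr5:77800001-77900000 the methionine rams ranged from 65.1 to 93.1%, with a median of 77.2%, and the control rams from 53.1 to 76.0%, with a median of 59.7%. The families did not overlap, at 68.9 to 89.7% against 56.4 to 64.5%, while single rams did. The difference was 16.4 points with a standard error of 3.44 (limma, unadjusted p = 0.000499, adjusted p = 1.00), over 11 cytosines of which 2 were differentially methylated by the read test described below. On chr5:36000001-36100000 the methionine families had 46.9 to 57.1% and the control families 37.9 to 44.9%, a difference of 11.8 points over 6 cytosines. A window on chr1:275200001-275300000 had 87.3 to 89.9% in methionine families and 71.2 to 87.3% in control families. The study's annotation places a cytosine of this window in an intron of STAG1, which encodes a cohesin subunit. The other 2 windows of this direction, chr21:22700001-22800000 and chr14:21900001-22000000, differed by 8.26 and 14.2 points. None of these 5 windows lost its direction without the 6 rams, with differences of 9.25 to 15.8 points. The remaining rams were also used to choose the windows, so this is not an independent check.

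Among the windows lower in the methionine line, chr16:57500001-57600000 had the smallest p. Its methionine rams ranged from 73.5 to 89.5% and its control rams from 83.0 to 95.1%, with family means of 77.5 to 83.8% against 86.7 to 92.9%. The difference was -8.95 points with a standard error of 2.14 (limma, unadjusted p = 0.00134, adjusted p = 1.00). The largest difference of this set was on chr1:133700001-133800000, where methionine families had 49.8 to 65.7% and control families 68.4 to 87.8%, or -15.8 points. The study's annotation places a cytosine of that window in the promoter of LOC101116626. The remaining windows, chr15:41300001-41400000, chr1:229900001-230000000 and chr8:84700001-84800000, differed by -13.8, -9.03 and -7.72 points. On chr1:229900001-230000000 the families overlapped, since 11T had 84.3% and 24C had 83.4%. All 5 kept their direction without the 6 rams, with -7.85 points on chr16, -11.9 on chr15, -7.20 on chr1:229900001-230000000, -7.75 on chr8 and -20.7 on chr1:133700001-133800000. The unadjusted limma p on chr1:229900001-230000000 rose from 0.00334 to 0.123. These windows too were chosen with the remaining rams included.

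Earlier generations were examined over the cytosines of these windows that were listed there too, which were between 2 and 10 per window. For the 5 windows lower in F2 methionine families, methionine minus control was -5.80, -16.5, -6.26, -3.01 and -11.1 points in the F0 sires, in the order chr16, chr15, chr1:229900001-230000000, chr8 and chr1:133700001-133800000. In the F1 pools these windows differed by -14.1, -12.6, -8.88, -1.82 and -15.3 points. The unadjusted exact permutation p was 0.103 or more in F0 and 0.00794, 0.0317, 0.143, 0.595 and 0.00794 in F1. All 5 were lower in the methionine line in both earlier generations. For the 5 windows higher in F2 methionine families, F0 differences were -9.48, -5.40, -0.945, 4.42 and -1.70 points and F1 differences -4.41, -3.78, -2.84, 3.67 and 2.50 points, in the order chr5:36000001-36100000, chr5:77800001-77900000, chr21, chr1 and chr14. Of these 5, 4 were lower in F0, 3 were lower in F1, and only that on chr1 was higher in both. Their unadjusted exact permutation p was 0.135 or more in F0 and 0.127 or more in F1. As background, 9030 windows had cytosines listed in all generations, and 48.5% of them were lower in the methionine line in both F0 and F1, while 17.4% were higher in both. Among the 4016 windows lower in F2, 52.5% were lower in both earlier generations, and among the 5014 higher in F2, 19.7% were higher in both. The named windows come from those with an unadjusted limma p under 0.05 in F2. Of 81 lower windows in that set, 69.1% were lower in both F0 and F1 and 14.8% were higher in both. Of its 118 higher windows, 32.2% were higher in both and 32.2% were lower in both. Differences between these shares were not tested, and windows are not independent of each other. The F1 and F2 rams of a line descend from its F0 sires. A family-specific level therefore cannot be told apart from an effect of diet in these values.

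Single cytosines were compared by a test on the reads summed over the 10 rams of each line, a likelihood-ratio test. Cytosines were called differentially methylated (DMCs) if the lines differed by 20 points or more with an adjusted p no higher than 0.01. There were 2678 CG DMCs, or 2.19% of the listed cytosines, of which 1346 (1.1%) were higher and 1332 (1.09%) lower in the methionine line. The share was lower among the 13449 cytosines with at least 20 reads in every ram, where the read test called 52. These are not a random part of the listed cytosines. Mean coverage was 61.0 reads in the class of 10 to 30% and 25.6 in that of 90% and over. The part of depth in the lower share was not tested. On the family means, which take account of the differences between animals, limma called 0 cytosines by the same thresholds. Of the 122453 listed, 930 (0.76%) had an unadjusted limma p under 0.05 and at least 20 points. With no threshold on the difference, 2706 (2.21%) had an unadjusted limma p under 0.05. The read test with an overdispersion term also called 0, with 1182 of the 122453 at an unadjusted p under 0.05 and at least 20 points. How large a difference this last test could find with these rams was not tested. Leaving out the 6 rams, the read test called 4219 cytosines, including 2185 of the 2678. Limma on the family means again called 0 at the threshold of 0.01, with a smallest adjusted p of 0.0424.

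DMCs were cytosines at which rams of the same line differed widely. Their median SD within a line was 29.2 points, against 10.9 points over all listed CG cytosines. Part of this contrast goes with level. The median SD was 16.4 points in the class of 30 to 70%, which holds 1757 of the DMCs, and 5.11 points in that of 90% and over. The 2 rams of a family differed by a median of 26.3 points at DMCs and by 10.1 points over all listed cytosines. At 2292 DMCs (85.6%) at least 1 ram was above 80% and another below 20%, whereas this held for 12.3% of all listed cytosines. The median difference between the lines at DMCs was 25.2 points in size, which is less than the SD between rams. Because the read test selects cytosines by their difference, these figures describe the called set and are not tests of it. Whether such levels follow sequence differences between rams at the cytosine was not tested.

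By class, the share called was highest at intermediate levels. The classes rest on the mean of all 20 rams, so that a cytosine near 0 or 100% can hardly reach a difference of 20 points, and the low shares of the outer classes follow from this. The class of 30 to 70% held 1757 DMCs (4.91% of its cytosines), with 878 higher and 879 lower in the methionine line. The class of 10 to 30% held 345 (2.999%), and that of 70 to 90% held 567 (2.56%). The lowest class held 7 and the highest 2. On unplaced scaffolds 10 cytosines (0.0485%) were called, against 2660 (2.63%) on autosomes and 8 on X. Chromosomes 21, 12 and 5 had the highest shares, at 4.61, 4.38 and 3.98%, and chromosome 23 the lowest at 1.16%.

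The families did not contribute evenly to the DMCs. At 877 DMCs (32.7%) the difference stayed at 20 points or more whichever of the 10 families was left out, and at 240 it fell under 10 points without 1 family. Family 23T was the one whose removal reduced the difference most at 595 DMCs (22.2%), followed by 10C at 418 (15.6%) and 4C at 13.1%. Family 24C, with both rams standing apart, came last at 114 (4.26%). These are differences in summed reads, so families with more reads weigh more. The median coverage was 29 and 37 reads in the rams of 23T and 12 and 25 in those of 24C. The part of coverage in this order was not tested. The 5 methionine families did not overlap the 5 control families at 105 DMCs, 50 higher and 55 lower, which is 3.92% of DMCs. Over all listed CG cytosines this was so at 472, or 0.385%. DMCs were chosen for their difference in these same rams, so a higher share among them follows from the choice and is not a test. At a cytosine where all 10 families differ in level, a fraction of 0.00794 of the splits into 5 and 5 separates them. At the level of single rams, 1 listed cytosine (0.000817%) separated all 10 methionine from all 10 control rams.

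**Figure D4:**
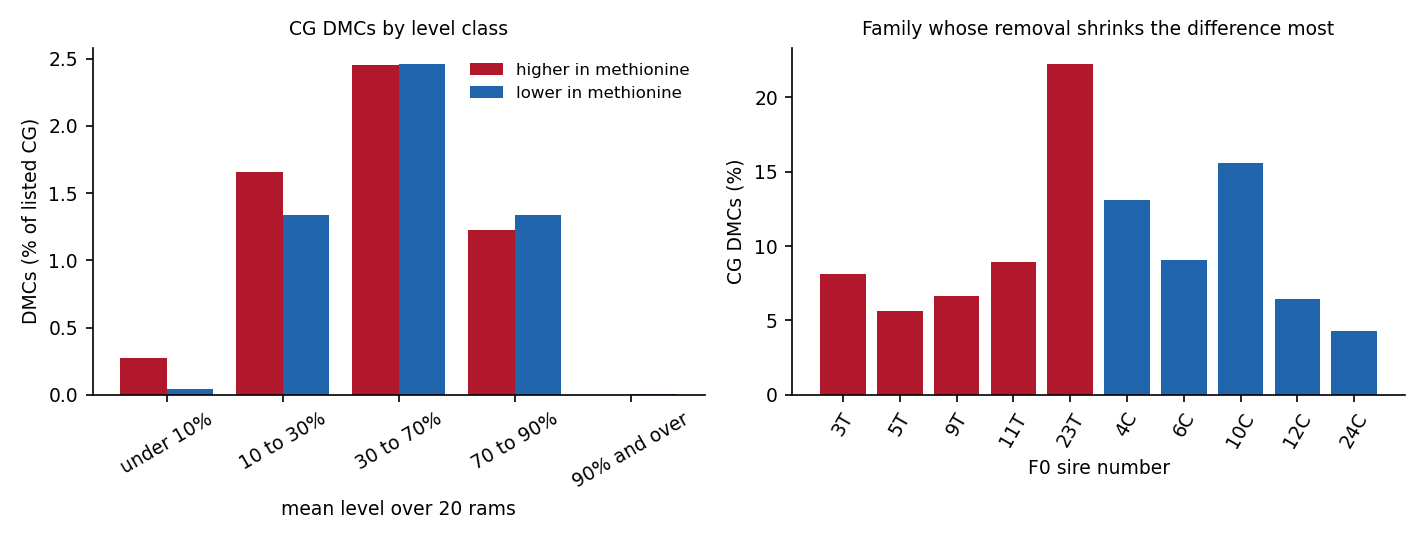
Left, CG DMCs higher or lower in the methionine line as a percentage of the listed CG cytosines of each level class. Right, percentage of the 2678 CG DMCs at which leaving out the named family reduced the difference in summed reads most. Both directions are about equally frequent at 30 to 70%, and family 23T leads with 22.2%.

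The cytosine that separated all rams lay on chromosome 25 at position 10658670 on the plus strand. Methionine rams ranged from 0.0 to 36.0%, with a median of 23.3%, and control rams from 36.4 to 70%, with a median of 54.3%. The gap between the highest methionine ram, of family 11T, and the lowest control ram, of family 24C, was thus under 1 read at the coverage of 10 to 32 reads. Methionine families averaged 16.9% ± 7.69 and control families 53.3% ± 5.61 (SD, n = 5 each), and limma on the family means gave an unadjusted p of 6.76e-06 and an adjusted p of 0.209. In the F0 sires the same cytosine had 18.2% under methionine and 24.7% under the control diet (p = 0.730, exact permutation test), and in the F1 pools 37.4% and 40.5% (p = 0.802).

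Among DMCs without overlap of families that were higher in the methionine line, that on chromosome 6 at position 103847553 had the largest difference. Its methionine rams ranged from 0.0 to 100%, with a median of 90.9%, and its control rams from 0.0 to 58.8%, with a median of 0.0%. The families averaged 75.0% ± 23.3 and 16.4% ± 15.04 (SD, n = 5 each), a difference of 58.6 points. Of the 20 rams, 8 were under 10% and 5 over 90%, so the values spanned the whole scale. The next in size in this direction were on chromosome 1 at position 276618105, chromosome 5 at position 28787884, chromosome 6 at position 118344669 and chromosome 5 at position 77844138, with differences of 49.0, 48.0, 47.2 and 45.7 points. The last of these lies in the window on chromosome 5 with a difference of 16.4 points. There, methionine rams were alike at 74.4 to 94.3%, whereas control rams ranged from 0.0 to 83.6%.

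In the opposite direction, the cytosine on chromosome 2 at position 176872385 had the largest difference, with methionine families at 24.1% ± 32.3 and control families at 83.1% ± 14.5 (SD, n = 5 each). Its methionine rams had a median of 1.92% and its control rams a median of 98.3%. Chromosome 3 at position 88975776 had the smallest p of all CG cytosines in limma on the family means (unadjusted p = 6.54e-07, adjusted p = 0.0800). Its methionine families lay close together at 19.7 to 28.1% and its control families at 70.7 to 94.8%, a difference of -53.1 points, although single rams of the lines ranged from 0.0 to 56.2% and from 41.5 to 100%. In F0 the methionine group had 62.7% and the control group 65.4% at this cytosine, and in F1 55.5% and 60.4%. The other 3, on chromosome 16 at position 65212519, chromosome 10 at position 60414339 and chromosome 3 at position 70379573, differed by -54.9, -53.8 and -52.9 points. The difference in summed reads with the 6 rams left out was 37.7 to 72.5 points at the 5 cytosines higher in the methionine line, against 44.0 to 61.9 points with all rams. At the 5 lower ones it was -67.4 to -51.6 points, against -58.1 to -45.1 points. At that on chromosome 25 at position 10658670 it was -32.7 points, against -36.4 points. The remaining rams were also among those used to choose these cytosines. Of the 10 cytosines chosen for the size of their difference, 6 were also listed for F0 and F1, and there none had an exact permutation p under 0.05. The largest earlier difference was that on chromosome 1 at position 276618105, where methionine minus control was 30.7 points in F0 (exact permutation test, p = 0.190) and 19.4 points in F1 (p = 0.230, exact permutation test), the direction seen in F2. On chromosome 3 at position 70379573 it was -2.16 points in F0 and -18.0 points in F1, and on chromosome 16 at position 65212519 it was -7.47 and -13.2 points. The cytosines on chromosome 5 at positions 28787884 and 77844138 differed by -1.999 and -5.64 points in F0 and by 1.70 and -2.88 points in F1.

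**Figure D5:**
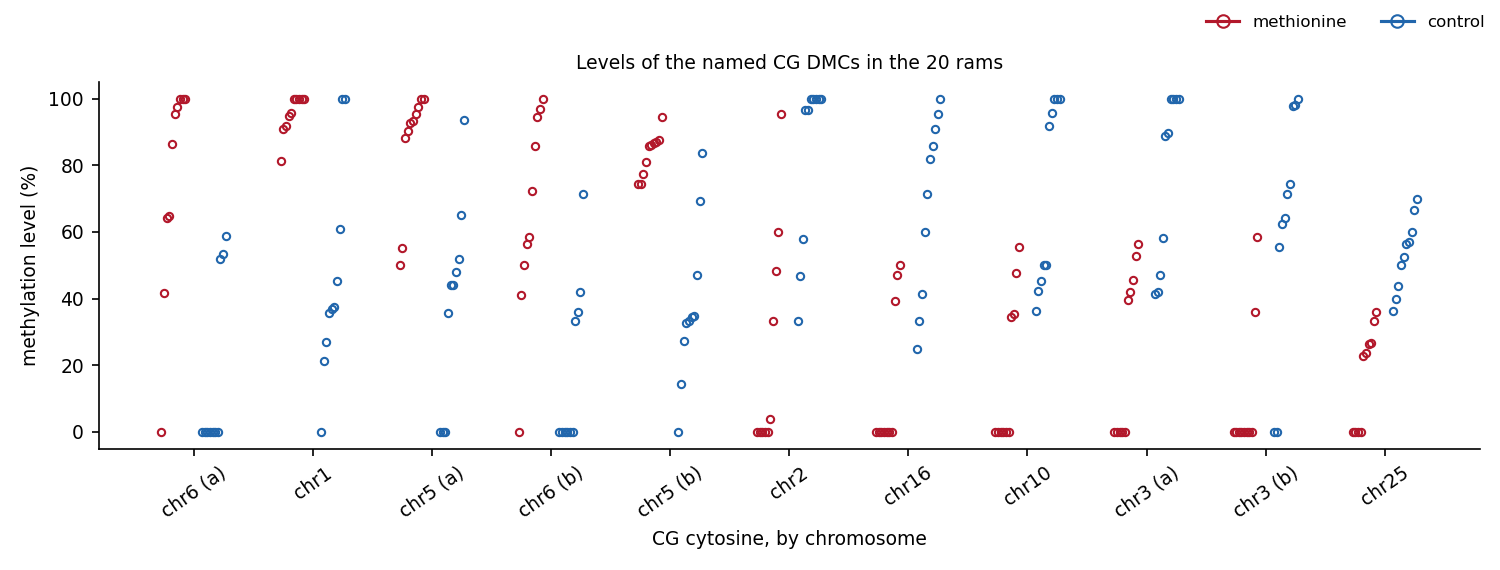
Methylation level in percent of the 11 named CG DMCs in the 20 F2 rams, with 1 circle per ram, sorted within each line. Cytosines are labelled by chromosome. At all but that on chromosome 25 rams of the 2 lines overlap.

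The windows with the most DMCs held them in both directions. The most were 5, on chr21:21600001-21700000 with 3 higher and 2 lower among 8 listed cytosines, and on chr5:35900001-36000000 with 2 higher and 3 lower among 12. The other 3 windows, chr18:46900001-47000000, chr18:49400001-49500000 and chr1:191500001-191600000, held 4 each, among 12, 16 and 6 listed cytosines. Over all listed CG cytosines 2.19% were DMCs, and these windows were chosen for their count. Their window differences ran from -1.56 to 8.73 points, and the smallest limma p among the 5 was 0.0428 before adjustment.

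DMCs outside CG were rare. In CHG, 427 cytosines (0.0306%) were called, 191 higher and 236 lower in the methionine line, and in CHH 1574 (0.0266%), 796 higher and 778 lower. The mean level outside CG was near 0.5%. Even so, 85.7% of the CHG DMCs and 82.6% of the CHH DMCs had a ram above 80% and another below 20%. This held for 0.119% of all listed CHG and 0.117% of all listed CHH cytosines. Here too, whether rams differ in sequence at the called cytosines was not tested. The families did not overlap at 12 CHG DMCs (2.81%) and 43 CHH DMCs (2.73%), and over all listed cytosines at 0.0418% in CHG and 0.045% in CHH. These DMCs too were chosen for their difference in the same rams, so the contrasts in span and overlap are not tests. Without the 6 rams the read test called 577 CHG and 2312 CHH cytosines. On the family means limma called 0 in both contexts. At an unadjusted limma p under 0.05 and at least 20 points there were 116 CHG (0.00832%) and 451 CHH cytosines (0.00764%). The smallest adjusted p in limma was 0.0232 in CHG and 0.000195 in CHH, the latter at a cytosine whose family means differed by less than 20 points.

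Set against the founders, the diet difference in mean CG level was of opposite sign but did not differ detectably. Over the 82155 CG cytosines that F0 and F2 have in common, the methionine sires had 70.9% and the control sires 71.6%, and their F2 families 72.9% and 72.7%. The change from sire to F2 family was between 0.145 and 3.43 points in all 10 families, and the methionine minus control difference was 0.897 points higher in F2 (exact permutation test on the changes, two-sided, p = 0.222). With the F1 pools in place of the sires it was 0.841 points higher (p = 0.286, exact permutation test). Against the F0 sires, it was 0.537 points higher without family 11T and 1.25 points higher without family 9T (exact permutation tests, p = 0.429 and 0.0952).

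Summed RNA levels of the cell type lists, as log2(CPM + 1), were also set against mean CG level over the 20 rams. Pearson's r was -0.228 for the sperm list, 0.205 for the leukocyte list and 0.361 for the squamous list (permutation tests, p = 0.332, 0.394 and 0.117, and adjusted over the 3 lists p = 0.394, 0.394 and 0.351). Spearman's rho was -0.174, 0.182 and 0.448 (permutation tests, p = 0.458, 0.442 and 0.0485, adjusted p = 0.458, 0.458 and 0.145). Without the 2 rams farthest from the median of the list, r was -0.190, 0.189 and 0.429. On summed CPM without a log, r was -0.239, 0.0348 and 0.254, and without the 2 farthest rams -0.235, 0.321 and 0.505, so that the leukocyte and squamous values on this scale were higher without those rams. None of the 3 relations passed the adjusted threshold on either scale.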

How the data were processed

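Bisulfite libraries of 20 F2 rams were analysed, with those of 10 F0 rams and 10 F1 pools for comparison. The authors trimmed the reads, mapped them with Bismark to Oar_rambouillet_v1.0, dropped duplicate reads, kept cytosines with at least 10 reads in all samples and deposited raw read counts per cytosine (covering and methylated) without normalization. RNA was deposited by the authors as raw gene counts.

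Levels were methylated over covering reads. Family means were compared by exact permutation tests and, across windows, chromosomes and cytosines, with limma 3.58.1 in R. DMCs came from a likelihood-ratio test on reads summed per line, with SciPy and Benjamini-Hochberg adjustment. RNA lists were summed as TMM-scaled CPM with edgeR, and the scaling used genes reaching 15 counts in over 10 rams. The read test and limma on family means were checked on simulated reads that had no spread between rams. That check therefore does not show how they behave with such spread. The exact test was checked on a fixed example, and the test with overdispersion was not checked. The 20 rams came from separate animals but only 10 sires.

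Named windows were the 5 with the smallest p per direction and the 5 with most DMCs. Named cytosines were the 5 per direction with the largest family difference among DMCs without overlap of families, and every DMC without overlap of rams. Named chromosomes were the 3 with the smallest p. Members and lists were chosen with earlier results of these data known. Gene names came from the study's annotation of the same position. No genome of this build was used here, so no sequence is printed. Columns of unmethylated reads were not used.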

Additional observations from a re-analysis of the deposited data

Results flagged for a closer look

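Of 48 groups of rams or families checked, 7 had a value far from the others by Dixon's criterion, which chance meets in about 1 of 20 groups. Family 24C accounted for 5 of them. Its mean on unplaced scaffolds was 65.3%, against 37.3% in the next control family. Its class levels were 6.04% in the class under 10% (next 4.32%), 41.5% in that of 10 to 30% (next 21.1%), 74.4% in that of 70 to 90% (next 82.1%) and 89.1% in that of 90% and over (next 95.7%). Both rams of this family belong to the 6 that stood apart. The other 2 came from 1 control ram of family 12C, with 0.566% in CHG (next 0.542%) and 0.547% in CHH (next 0.523%).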

How the results depend on the processing

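The difference in mean CG level was -0.09 to 0.761 points with 1 family left out, -0.136 with at least 20 reads in every ram, 1.49 with summed reads and 0.390 without the 6 rams. That of CHG was -0.00442 to 0.0015 with 1 family left out and 0.000933 without the 6 rams, and that of CHH -0.00346 to 0.00228, 0.000111 with summed reads and 0.00208 without the 6 rams. None passed. The class of 30 to 70% turned to 0.543 points without the 6 rams. Windows called were 0 with each family left out, and 2595 by the read test. CG DMCs numbered 2885 to 3290 with 1 family left out, 1385 at 25 points, 52 among the 13449 cytosines with at least 20 reads in every ram, 4219 without the 6 rams and 0 by limma on families, limma on rams with the family as a random effect, limma with the replicate block, and the read test with overdispersion. CHG DMCs numbered 421 to 488 with 1 family left out, 212 at 25 points and 0 by limma, and CHH DMCs 1608 to 1979, 835 and 0. The cause of these changes was not tested. The F0 to F2 change of the diet difference was 0.537 to 1.25 points with 1 family left out.

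The labels do not name the twin pairs of F0 sires. Taking consecutive sire numbers as pairs is a guess. Deviations of paired families correlated by -0.0906 to 0.142, which cannot tell whether their F0 sires were twins. The main tests compare the families without pairs. With this replicate block the mean CG difference was 0.234 points, and 5 pairs cannot give an exact p below 0.0625. Leaving out the 6 rams, the class level as a covariate and placed chromosomes alone were chosen after seeing the data. Coverage of 10 to 20 reads moves a single level in steps of 5 to 10 points.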
